A study of Rattus norvegicus with 2 samples.

Results

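Cytochrome P450 enzymes were examined in small arteries of the rat mesentery, which supply the intestine, as the probe sets of a rat array whose annotation gives a single gene symbol made of Cyp and a family number. Cyp51, the sterol demethylase of cholesterol synthesis, was left out. This gave 79 probe sets for 48 genes, out of 8740 probe sets that are not controls and 4736 genes named by 1 symbol. RNA had been pooled from 20 rats after a sham operation and from 20 rats made portal hypertensive by partial ligation of the portal vein, which blocks flow upstream of the liver, and each pool was read on 1 RG_U34A array. Neither the strain, sex and age of the rats nor the time since the operation is stated in the labels. With 1 array a group there is no test, p-value or error between animals, and each difference compares 2 pools.

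P450 enzymes hold a heme group. With it most of them put 1 oxygen atom from molecular oxygen into their substrate, using electrons passed on by a reductase. Families 1 to 3 oxidise mainly drugs and foreign compounds, and family 4 mainly fatty acids. Higher families mostly have fixed roles in the making and breakdown of steroids, bile acids, vitamin D and retinoids. The liver carries most of the drug-oxidising forms. In small arteries the family is known for its arachidonic acid products, since epoxygenases of family 2 make lipids that relax the vessel and omega-hydroxylases of family 4 make a lipid that constricts it.

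P450 signals were low in this tissue, and 25 of the 48 genes had no probe set above the floor used here, a count that ran from 10 to 37 with the floor. A floor of 330.9 intensity units, the 40th percentile of all non-control signals of both arrays, served to separate brighter probe sets from dimmer ones, and "measured" means above it in both pools. Of the 79 P450 probe sets, 26 (32.9%) were measured, against 56.8% of all non-control probe sets. Another 47 lay below the floor in both pools (59.5%, against 36.8% of all), 5 were above it in the sham pool only (3.82% of all probe sets were) and 1 in the portal hypertension pool only (2.67% of all). In the sham pool 39.2% of P450 probe sets were above the floor, against 60.6% of all, and in the portal hypertension pool 34.2%, against 59.4%. In RNA from a whole vessel, fewer cells of a type and less RNA per cell cannot be told apart. By gene, 18 of 48 had a measured probe set (37.5%, against 64.4% of all named genes), 5 passed it in a single pool, and 25 (52.1%, against 29.2%) had no probe set above it. The count of 26 moves with the floor. A floor set at the 20th percentile left 45 measured (57%, against 76.1% of all), and one at the 60th left 9 (11.4%, against 38%), while without probe sets of shared or relaxed design it was 7 of 25 (28%, against 55.3%). The 25 genes with no probe set above the floor became 10 of 48 (20.8%, against 11.5%) at the lower of these floors, 37 (77.1%, against 50.9%) at the upper, and 13 of 22 (59.1%, against 33.7%) without shared probe sets. The floor is no detection call, and the nearest members show how narrow its margin is. Cyp2b2 with signals of 374.6 (sham) and 689.1 (portal hypertension) and Cyp3a9 with 429.7 and 402.2 lay just inside, while a Cyp2c11 probe set with 327.4 and 131.2 and a Cyp1b1 probe set with 299.0 and 274.0 lay just outside.

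**Figure D1:**
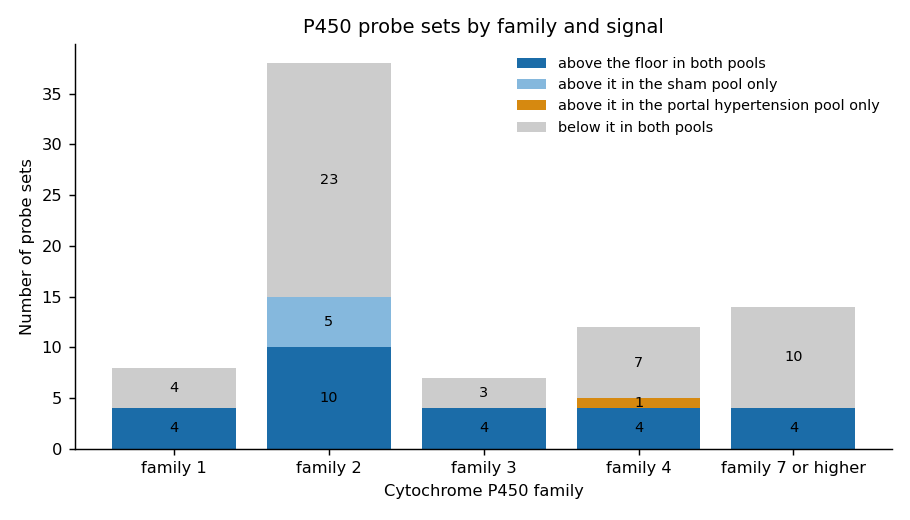
Number of P450 probe sets (vertical axis) in each family (horizontal axis), stacked by whether the signal lay above the floor of 330.9 intensity units in both pools, in 1 pool or in neither. Grey, below the floor in both pools, is the tallest segment in families 2, 4 and 7 or higher, and the 5 probe sets above the floor in the sham pool only all belong to family 2.

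The signals of measured P450 probe sets were low, and their ratios spread about as widely as those of all measured probe sets of similar signal. Their geometric mean signal ran from 415.7 to 2951 with a median of 821, and 2 of 26 exceeded the median of all measured probe sets, 1627. Over the 26 probe sets, log2 ratios of portal hypertension over sham centred on a median of -0.08 with an SD of 0.39, against -0.06 and 0.38 over the 3064 measured probe sets in the same range of signal. By the criterion of a 1.5-fold difference, 2 members were higher in the portal hypertension pool (7.69%, against 3.1% of all measured probe sets) and 1 was lower (3.85%, against 5.38%). All 3 calls rest on probe sets of a shared design, without which 0 were higher (against 2.88% of all) and 0 lower (against 5.12%). At the 20th percentile floor 4 were higher (8.89%, against 6.46%) and 8 lower (17.8%, against 8.99%), and at the 60th 0 were higher (against 2.08%) and 1 lower (11.1%, against 3.32%). None was 2-fold apart, where 0.444% of all measured probe sets were higher and 0.907% lower. For scale, probe sets of 1 gene scattered in this range of signal with an SD of 0.36 in log2 ratio (786 probe sets of 363 genes), a spread that leaves out all differences between rats. Of the 26 P450 ratios, 18 were smaller in size than this SD. The share of all measured probe sets below it was not computed, so this count has no comparison.

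**Figure D2:**
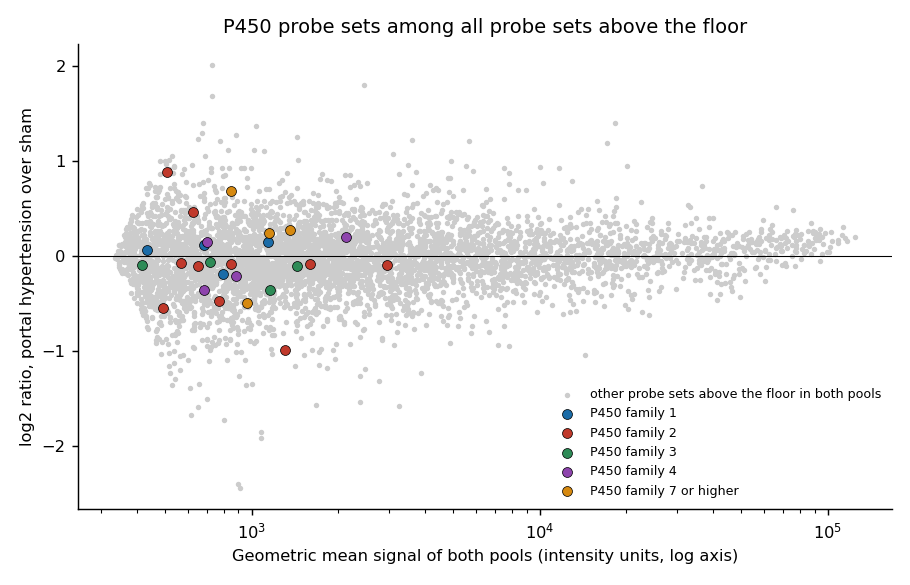
Log2 ratio of portal hypertension over sham (vertical axis) against the geometric mean signal of both pools (horizontal log axis, intensity units) for probe sets above the floor in both pools, with the 26 P450 probe sets coloured by family and all others in grey. The P450 points sit at the dim end, from 415.7 to 2951 units, and between log2 ratios of -0.99 and 0.88.

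By gene, the median log2 ratio over the 18 measured P450 genes was -0.09, against -0.02 over all 3050 measured genes. Of the 18 genes, 11 had a value below 0 (61.1%, against 52.7% of all measured genes) and 7 above it. Cyp2a1 was at least 1.5-fold lower and Cyp2b2 at least 1.5-fold higher. The share of all measured genes at this fold was not computed, so these calls by gene have no comparison. The median turned to 0.03 when the floor was raised to the 60th percentile. The gene values thus lay on both sides of 0, and the members are described by family and role.

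**Figure D3:**
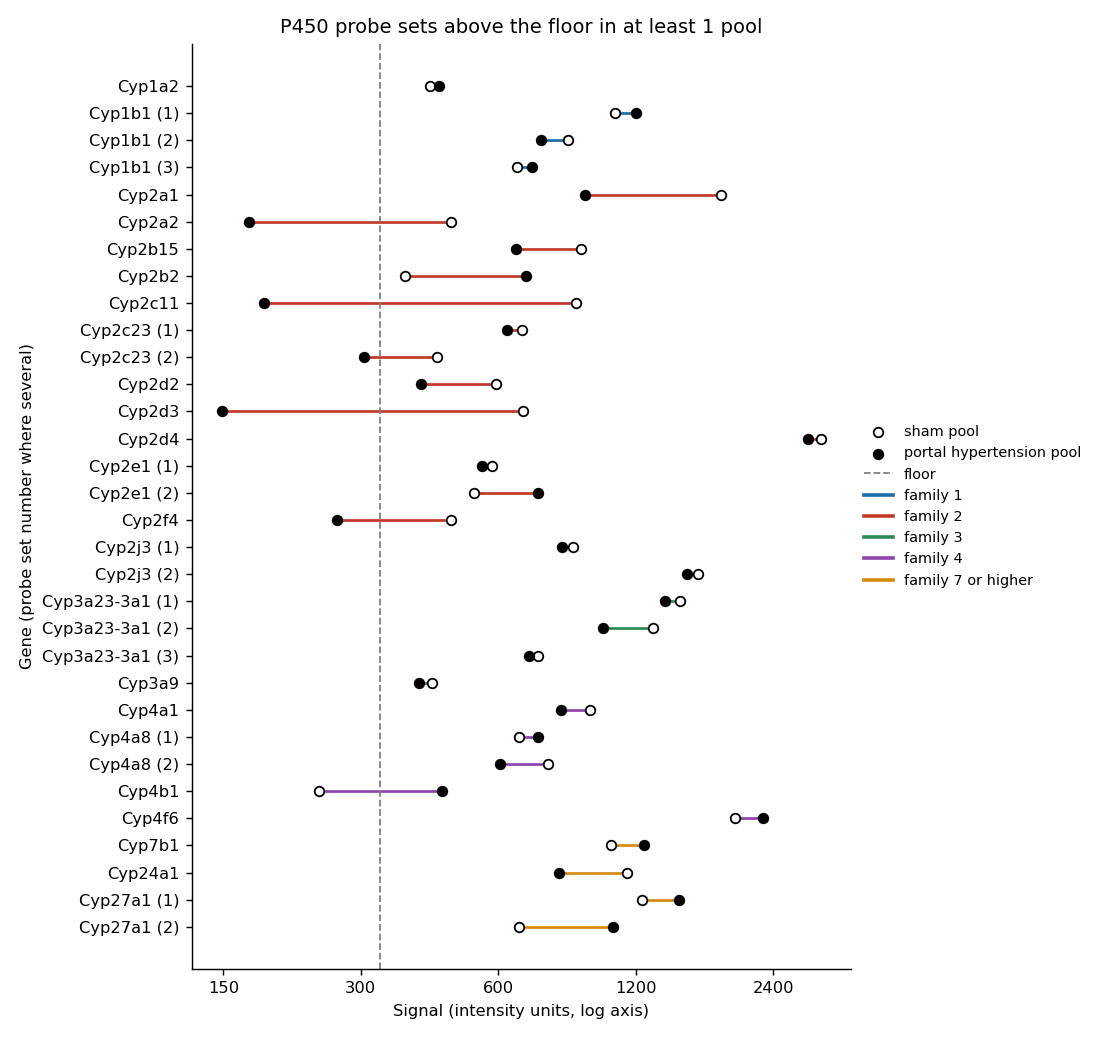
Signal of the sham pool (open circles) and of the portal hypertension pool (filled circles) on a log axis in intensity units, for the 32 P450 probe sets above the floor (dashed line) in at least 1 pool, with the joining line coloured by family. The lines of Cyp2a2, Cyp2c11, Cyp2d3, Cyp2f4 and 1 Cyp2c23 probe set cross the floor to lower signals, and that of Cyp4b1 crosses it to a higher one.

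Family 1 was represented mainly by Cyp1b1, which was measured on 3 of 4 probe sets and did not differ in a settled direction. Cyp1b1 encodes an enzyme that hydroxylates estradiol and polycyclic hydrocarbons and is known as a form of tissues outside the liver. Its signals were 1081.9 and 1201.6 on the first probe set, 851.0 and 744.8 on the second, and 659.3 and 711.3 on the next, always sham before portal hypertension, as in all pairs of signals given hereafter. The log2 ratios of 0.15, -0.19 and 0.11 lie on both sides of 0 and within the scatter between probe sets. The last 2 were designed on the same transcript sequence, so they are not independent. Cyp1a1 and Cyp1a2, which are induced through the aryl hydrocarbon receptor like Cyp1b1, were mostly below the floor. Cyp1a1 had 65.2 and 66.0, and Cyp1a2 had 86.1 and 79.5 on 1 probe set and 23.1 and 22.6 on another. The remaining Cyp1a2 probe set had 425.1 and 444.9, so its call rests on 1 probe set of 3. All 4 probe sets of the receptor gene Ahr itself gave signals under the floor, while Arnt, its dimer partner, had 749.8 and 744.0 on its brighter probe set.

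The promoters of 3 genes are printed, from RefSeq's rat assembly GRCr8, because they belong to a gene measured evenly in both pools (Cyp1b1), the gene with the highest bound on the lower side (Cyp2c11) and a gene with a higher signal on both of its probe sets (Cyp27a1). Each is the 250 bases before the annotated start on the plus strand, at chr6:21094315-21094564, chr1:246174966-246175215 and chr9:83713282-83713531. Capitals mark GCGTG, the core bound by the aryl hydrocarbon receptor with Arnt, and the basal promoter element TATAAA, each searched on both strands.
Cyp1b1: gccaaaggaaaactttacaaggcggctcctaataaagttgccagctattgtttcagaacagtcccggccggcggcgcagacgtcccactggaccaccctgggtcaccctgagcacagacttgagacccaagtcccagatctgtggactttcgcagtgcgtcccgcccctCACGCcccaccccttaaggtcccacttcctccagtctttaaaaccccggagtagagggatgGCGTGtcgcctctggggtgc
Cyp2c11: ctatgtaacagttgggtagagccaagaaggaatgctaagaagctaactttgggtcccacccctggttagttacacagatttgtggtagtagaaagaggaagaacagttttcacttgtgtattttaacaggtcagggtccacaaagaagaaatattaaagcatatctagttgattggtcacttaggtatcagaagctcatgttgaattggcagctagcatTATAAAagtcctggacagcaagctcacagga
Cyp27a1: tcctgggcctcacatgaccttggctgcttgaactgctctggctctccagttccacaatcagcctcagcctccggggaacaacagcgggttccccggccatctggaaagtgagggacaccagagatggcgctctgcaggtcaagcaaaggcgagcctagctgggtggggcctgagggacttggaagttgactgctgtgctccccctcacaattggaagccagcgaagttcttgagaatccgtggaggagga

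The Cyp1b1 window holds GCGTG at bases 20 to 16 before the start and, on the opposite strand, at bases 81 to 77. TATAAA occurs in the Cyp2c11 window at bases 31 to 26 before the start, and the Cyp27a1 window holds neither string. Of the 48 P450 genes, 36 had a promoter in the table. GCGTG was found in 6 of these (16.7%, against 25.9% of 33469 promoters of the same length) and TATAAA in 12 (33.3%, against 12.9%). TATAAA stood in 3 of 15 promoters of measured P450 genes, 2 of 4 of genes above the floor in 1 pool and 7 of 17 of genes below it in both. For GCGTG these counts were 3 of 15, 0 of 4 and 3 of 17. A difference between these classes was not tested. A match describes letters in a window and is no evidence that a factor binds there.

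Family 2, the largest with 21 genes and 38 probe sets, held both the highest and the lowest measured ratio of all P450 genes. In family 2, 10 probe sets were measured, 5 passed the floor in the sham pool only and 23 in neither. In direction, 8 of the 10 measured ratios were below 0 under the deposited scaling, quantile normalization and removal of a loess trend alike. Of all measured probe sets 46.9% had a ratio above 0. Cyp2a1, Cyp2a2, Cyp2c11 and Cyp2d3, steroid and drug hydroxylases best known from liver, were among the lower members. Of these only Cyp2a1 was measured. Cyp2a2, Cyp2c11 and Cyp2d3 passed the floor in the sham pool only, so their lower value in the other pool follows from that call. The epoxygenase genes Cyp2j3 and Cyp2c23 had measured ratios close to 0.

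Among the steroid hydroxylases, Cyp2a1, which hydroxylates testosterone, had signals of 1840.2 and 929.7 on its only probe set, a level 1.98 times lower after portal vein ligation. This is the lowest ratio among the measured P450 probe sets (log2 ratio -0.99), and over 6 alternative settings it lay between -0.99 and -0.92. With a single probe set, only quantile normalization and removal of a loess trend could change this value. Its neighbour Cyp2a2, also a testosterone hydroxylase, had 472.7 and 170.9. That is at least 1.43-fold lower, a bound against the floor since only the sham value lies above it. Cyp2c11, a steroid hydroxylase and arachidonic acid epoxygenase of male rat liver, gave 886.5 and 184.3 on 1 probe set, at least 2.68-fold lower. The other pair of Cyp2c11 probe sets did not reach the floor, with 327.4 and 131.2 on 1 and 128.4 and 141.1 on the other. The size therefore rests on 1 of 3 probe sets, and the last of them was not lower.

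The drug-oxidising forms of the Cyp2d branch were lower for some members and level for another. Cyp2d3 had signals of 680.0 and 148.8 on its only probe set, at least 2.055-fold lower in the portal hypertension pool. Cyp2d2 had 594.1 and 407.0, a log2 ratio of -0.55 that stays under the 1.5-fold threshold. Cyp2d4, known from brain as well as liver, had 3046.4 and 2858.3 on its brighter probe set and 117.6 and 134.4, both below the floor, on the other. The 3 genes form 1 run of neighbours in the genome.

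Cyp2b2, the classic phenobarbital-induced form, had the highest ratio. Its signals were 374.6 and 689.1 on 1 probe set, 1.84 times higher in the portal hypertension pool (log2 ratio 0.88), with the sham value close to the floor. On its other probe set the signals of 154.4 and 103.7 were below the floor and pointed the other way. Cyp2b15, of the same subfamily, had 910.9 and 655.2, a log2 ratio of -0.48, so the branch had no common direction. Cyp2f4, a lung form that activates naphthalene, had 473.2 and 266.0, at least 1.43-fold lower.

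Beside Cyp2c11, the arachidonic acid epoxygenases on the array include Cyp2j3 and Cyp2c23, whose measured probe sets differed by less than 1.5-fold, as did those of Cyp2e1. Cyp2j3, an epoxygenase known from heart, had 1643.5 and 1553.1 on 1 probe set and 874.1 and 825.7 on another, with a log2 ratio of -0.08 on both. A Cyp2j3 probe set at 39.2 and 12.4 gave no usable signal. Cyp2c23, the main epoxygenase of rat kidney, had 677.0 and 626.9 on its measured probe set. Another Cyp2c23 probe set passed the floor in the sham pool only, with 439.9 and 304.2, at least 1.33-fold lower, and the last was below it with 82.6 and 109.5. Cyp2e1, which oxidises ethanol and small solvents, had 581.6 and 552.5 on 1 probe set and 531.2 and 733.4 on another, log2 ratios of -0.07 and 0.47 that do not settle a direction. The remaining Cyp2e1 probe set was below the floor with 78.8 and 119.2.

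The other 9 genes of family 2 were below the floor in both pools on all of their 16 probe sets, with signals from 5.8 to 297.2. They were Cyp2a3, Cyp2b3, Cyp2b12, Cyp2c6v1, Cyp2c7, Cyp2c12, Cyp2c13, Cyp2c22 and the olfactory form Cyp2g1. Cyp2c12, the female counterpart of Cyp2c11 in liver, did not exceed 36.3 on either of its probe sets.

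Several of the lower members are forms known from liver, of which Cyp2a2, Cyp2c11 and Cyp2d3 passed the floor in the sham pool only. Some other members of families 1 to 3 were not lower, with gene values of 0.07 for Cyp1a2, 0.20 for Cyp2e1 and 0.88 for Cyp2b2. Cyp2b15 and Cyp2d2 were lower, at -0.48 and -0.55. The hepatocyte markers on the array are given beside the lower members. Of 11 hepatocyte genes on the array, 6 were measured, Apoa1 was above the floor in the sham pool only with 487.3 and 288.0, and Tat, Fgb, Ahsg and Pck1 were below it in both. The albumin gene Alb passed the floor on 1 of 4 probe sets, with 524.8 and 638.1. Of the 6 measured genes 4 were above 0 and 2 below, with Apob at 0.49 and Serpina1 at -0.24. The sum over the brightest probe set of each hepatocyte gene, those under the floor included, came to 5116 and 5360. Endothelial markers were lower in the portal hypertension pool beside these members. All 3 measured endothelial genes of 5 on the array had values below 0, and 2 were at least 1.5-fold lower. Icam2, an adhesion molecule gene, had 796.1 and 364.7 (log2 ratio -1.13). Nos3, the endothelial nitric oxide synthase gene, had 1510.7 and 878.8, 852.1 and 371.2, and 576.9 and 684.8 on its 3 measured probe sets, a gene value of -0.78. Pecam1 had 3408.7 and 3176.3, and Vwf and Kdr were below the floor in both pools. The endothelial sums were 6114 and 4808. The part of hepatocytes and of endothelial cells in the lower P450 signals was not tested.

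**Figure D4:**
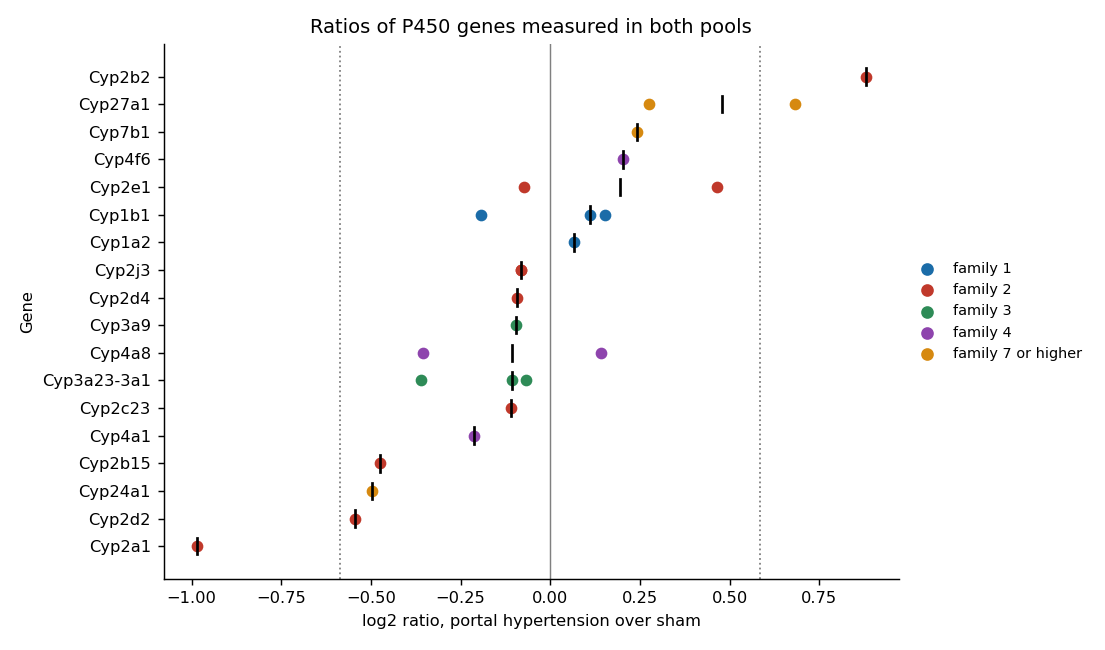
Log2 ratio of portal hypertension over sham (horizontal axis) for the 18 P450 genes measured in both pools, with a point for each measured probe set, a black bar at the gene's median and dotted lines at 1.5-fold. Only Cyp2a1 and Cyp2b2 have a gene value outside the dotted lines, and Cyp1b1, Cyp2e1 and Cyp4a8 have points on both sides of 0.

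In family 3, which oxidises steroids and many drugs, Cyp3a23-3a1 and Cyp3a9 were measured and differed little. Cyp3a23-3a1, the glucocorticoid-inducible form, had 1497.1 and 1390.2, 1308.4 and 1019.4, and 733.3 and 700.1 on its 3 measured probe sets, and 270.3 and 273.9 below the floor on the other. The first 2 probe sets were designed on the same source sequence. The 3 measured ratios were below 0, with log2 values from -0.36 to -0.07. After quantile normalization or removal of a loess trend 1 of the 4 measured ratios of family 3 turned above 0. Cyp3a9 had 429.7 and 402.2, a log2 ratio of -0.10. Cyp3a2 and Cyp3a18 were below the floor, with signals from 5.0 to 74.0.

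In family 4, the fatty acid omega-hydroxylases, 3 of 9 genes were measured and none was 1.5-fold apart. Cyp4a1 and Cyp4a8 belong to the branch that makes the constrictor lipid from arachidonic acid. Cyp4a1 had 951.9 and 822.1 on 1 probe set, and 100.7 and 302.7 and 70.2 and 66.9 on others below the floor. Cyp4a8 had 664.9 and 733.2 on 1 probe set and 772.0 and 604.0 on the other, with log2 ratios of 0.14 and -0.35 that point opposite ways. Thus neither gene showed a settled difference. Cyp4f6, of the branch that also inactivates leukotrienes, had 1981.6 and 2280.9 on its only probe set, a log2 ratio of 0.20. This lay from 0.20 to 0.23 over 7 alternative settings, of which only quantile normalization and removal of a loess trend could change it.

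Cyp4b1, which oxidises fatty acids and is known from lung, was the only P450 gene above the floor in the portal hypertension pool alone, with 242.8 and 452.2, at least 1.37-fold higher. Cyp4a3, Cyp4f1, Cyp4f4, Cyp4f5 and Cyp4f17 were below the floor in both pools, with signals from 51.2 to 175.5.

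The higher families held 11 genes, and their measured members were the sterol hydroxylases Cyp27a1 and Cyp7b1 and the vitamin D hydroxylase Cyp24a1. Cyp27a1 hydroxylates the side chain of cholesterol in mitochondria, and it was the only gene of the higher families with both of its probe sets measured. The signals were 1235.8 and 1494.2 on 1 probe set and 667.4 and 1070.7 on the other, 1.21 and 1.60 times higher in the portal hypertension pool. The gene value of 0.48 on the log2 scale lay between 0.27 and 0.54 over 6 alternative settings. Cyp7b1, which acts on the oxysterols that Cyp27a1 makes, had 1058.7 and 1251.1, a log2 ratio of 0.24 that is within the scatter between probe sets.

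Cyp24a1, which inactivates vitamin D, had 1146.0 and 812.7 on 1 probe set, a log2 ratio of -0.50. Its other probe set, with 119.7 and 130.3, was below the floor and did not show this difference, and with the floor at the 20th percentile, where it counts, the gene value came to -0.19. Vdr, the vitamin D receptor gene, had 1308.3 and 929.9 on its only probe set (log2 ratio -0.49), and a link between it and Cyp24a1 was not tested. Cyp27b1, which activates vitamin D, was below the floor with 214.0 and 114.3.

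The genes of steroid hormone synthesis and Cyp7a1 were below the floor in both pools. Cyp11a1, the first enzyme of all steroid hormone synthesis, had 139.7 and 256.7, and Cyp11b2, which makes aldosterone, 46.9 and 67.0. Cyp17a1 had 45.6 and 29.3, Cyp21a1 214.9 and 197.7, and Cyp19a1, the aromatase gene, 63.7 and 126.5. Cyp7a1, the rate-limiting enzyme of bile acid synthesis in liver, had 143.7 and 128.5 on 1 probe set and 13.3 and 8.7 on the other. Cyp26b1, which degrades retinoic acid, was likewise below the floor with 96.7 and 107.3. Below the floor, ratios carry little information: the log2 ratios of the 47 P450 probe sets there ran from -2.09 to 1.59 with an SD of 0.82, against 0.93 for all 3213 such probe sets.

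Markers of macrophages, fat cells and mast cells had higher sums beside the higher signals of Cyp27a1, Cyp4b1 and Cyp2b2. They were not alone in this, as the sums of the fibroblast, hepatocyte, adrenal cortex and intestinal epithelium lists were higher too. Summed over the brightest probe set of each gene, 5 macrophage genes came to 18380 and 24121, and of these 4 were measured and Csf1r was below the floor. The macrophage genes were split, with Ctss at 0.50 and Aif1 at 0.46 but Cd14 at -0.14 and Ptprc at -0.48, and Ctss alone had 11698.7 and 16506.3. The Ptprc value is the median of 3 probe sets at -0.63, -0.48 and 0.995, which point opposite ways. The sums over 7 fat cell genes were 60904 and 73627, with 6 genes measured, 5 above 0 and Lep below it at -0.21, and Plin1 below the floor. Those over 6 mast cell genes were 10870 and 18124, with 4 measured and Kit below the floor, and Cma1 at 1.20 and Cpa3 at 0.82 were higher while Tpsb2 had -0.37. The part of these cells in the 3 P450 values was not tested. Of 7 fibroblast genes all were measured, 6 above and 1 below 0, with sums of 330535 and 353128. Of other tissues near the mesentery, 1 of 4 intestinal epithelium genes, 1 of 7 pancreas genes and 1 of 3 adrenal cortex genes were measured. The adrenal cortex sums were 1021.5 and 1474.8, with Scarb1 as the measured gene. The smooth muscle markers of the labelled tissue, 5 of 5 measured, had sums of 240083 and 234468, with 1 value above 0 and 4 below.

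Probe sets of the same P450 gene often disagreed on whether the gene was above the floor at all. Of 20 genes with several probe sets, 10 had some measured and others below the floor in both pools, 2 had all measured, and 7 had all below it. Among 6 genes with several measured probe sets, 3 had ratios on both sides of 0. The same counts over all genes with several probe sets were not made, so no trait particular to P450 genes can be read from them. Most P450 probe sets (54 of 79, 68.4%, against 31.7% of all) bear a suffix that Affymetrix gave to sets shared between similar transcripts or chosen under relaxed rules, and 19 of the 26 measured ones do. Paralogs such as those of the Cyp2a, Cyp2b, Cyp2c and Cyp2d branches can therefore share signal, and their values name a gene only as far as the annotation does. Another 13 probe sets are annotated to several P450 genes at once and name no gene here. Of these 3 were measured, with log2 ratios of -0.75, -0.12 and 0.20.

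**Figure D5:**
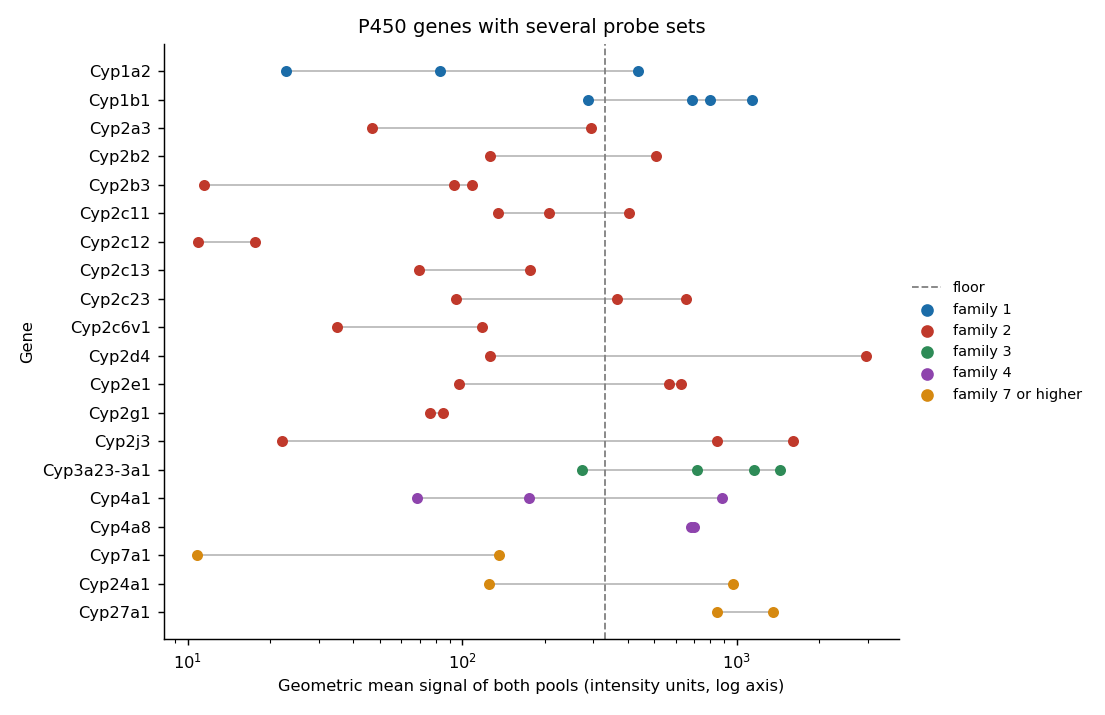
Geometric mean signal of both pools (horizontal log axis, intensity units) of each probe set of the 20 P450 genes that have several, coloured by family, with the floor as a dashed line. Probe sets of 1 gene spread widely, as for Cyp2d4 and Cyp2j3, and for 10 genes they include sets measured in both pools and sets below the floor in both.

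The longest runs of neighbouring genes were mixed in level, and the longest of all also in direction. By the positions in GRCr8, with gaps of at most 500 kb, the 9 genes Cyp2b2, Cyp2b3, Cyp2b12, Cyp2b15, Cyp2g1, Cyp2a3, Cyp2a1, Cyp2a2 and Cyp2f4 form 1 run, which holds both the highest (Cyp2b2) and the lowest (Cyp2a1) measured ratio, and 4 of the 9 genes were below the floor. In the run of Cyp4a8, Cyp4a3, Cyp4a1 and Cyp4b1, 2 genes were measured and 1 was below the floor. In the run of 5 Cyp4f genes only Cyp4f6 was measured. Of the other runs, that of Cyp3a18, Cyp3a2 and Cyp3a23-3a1 had 1 gene measured and 2 below the floor. So did the run of Cyp1a2, Cyp1a1 and Cyp11a1. The run of Cyp2c6v1 and Cyp2c7 and that of Cyp2c12, Cyp2c13 and Cyp2c22 lay below the floor in both pools throughout. No gene of the run of Cyp2d4, Cyp2d3 and Cyp2d2 lay below it in both pools on all its probe sets. In that run 2 genes were measured and 1 was above the floor in a single pool.

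Most genes of electron transfer and of heme supply and breakdown were measured. Of 7 electron transfer genes on the array, 6 were measured and none of these was 1.5-fold apart as a gene. Cyb5r1 was above the floor in the sham pool only, with 648.7 and 324.3. Por, the reductase that hands electrons to most microsomal P450s, had 1302.2 and 2371.1 on 1 probe set and 851.7 and 1039.4 on another. Its gene value was 0.58 on the log2 scale, and the last probe set was below the floor with 255.8 and 229.7. Both measured Por probe sets were higher in the portal hypertension pool. Fdx1, which serves the mitochondrial P450s such as Cyp27a1, had 3147.8 and 3516.0 on its measured probe set. Cyb5a had a gene value of 0.28, and Cyb5r3 had -0.29 over 5 probe sets, of which 1 stood apart with 2050.1 and 390.0.

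Of 8 genes for heme supply and breakdown all were measured, 3 above and 5 below 0, and none was 1.5-fold apart. Alas2, the red cell form of the first enzyme, had -0.40, and the heme oxygenase genes Hmox2 and Hmox1 had -0.31 and 0.24. Of 17 regulators of P450 genes, 10 were measured. Rxrb was above the floor in the sham pool only, with 536.7 and 200.8, and Ppara in the portal hypertension pool only, with 212.9 and 337.4. Of the measured regulators 1 was at least 1.5-fold higher. This was Nr1h3, a receptor for oxysterols, with 690.8 and 1061.8 (log2 ratio 0.62). Nfe2l2 had -0.30 over probe sets of 0.03 and -0.63, and the liver regulators Hnf4a and Nr1h4 were below the floor.

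Of 17 genes that conjugate or hydrolyse P450 products, 9 were measured, 0 were at least 1.5-fold higher and 1 was lower. The lower one was Sult2a2, a liver sulfotransferase gene, with 1180.0 and 686.6 (log2 ratio -0.78) on 1 of 3 probe sets. Aldh1a1, a retinal dehydrogenase gene, had -0.53. The microsomal epoxide hydrolase gene Ephx1 had 5620.6 and 6537.9, and Ephx2, the soluble hydrolase that inactivates the vasodilator epoxides, had 1532.4 and 2170.1 on its measured probe set but 458.1 and 325.9 on another.

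Of 11 genes of arachidonic acid release and its other oxygenases, 8 were measured, 2 above and 6 below 0, and none of these was 1.5-fold apart. Pla2g2a had a log2 ratio of -0.46, Alox5ap -0.31 and Ptgs1 -0.30. Ptgis and Tbxas1 encode the prostacyclin and thromboxane synthases, which are P450 proteins under other symbols. Ptgis had 3845.5 and 3468.3, and Tbxas1 was above the floor in the portal hypertension pool only, with 260.4 and 509.7. The phospholipase gene Pla2g6 was above it in the sham pool only, with 657.0 and 264.5.

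Of 13 steroidogenic partners 7 were measured, 5 above and 2 below 0, and none was 1.5-fold apart, with Scarb1 at 0.51, Hsd17b1 at 0.29 and Hsd17b10 at -0.25. Star, which brings cholesterol to Cyp11a1, had 314.0 and 424.6 on its brighter probe set. Of 5 other oxidase genes, all measured, Xdh had 0.38, Maoa -0.22 and Maob -0.17, and Cyp51 had -0.15 over 4 probe sets.

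The amount of labelled RNA noted in the file headers, with a question mark, was 17 µg (sham) and 12.5 µg (portal hypertension), and the fluidics modules were 2 and 1. Each belongs to 1 group and cannot be told apart from the operation.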

How the data were processed

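Total RNA was pooled from 20 rats in each group and read on 1 RG_U34A array per pool, per the labels and the file headers. The authors deposited a linear intensity for each probe set and array, with no software, background correction or scaling target given in the sources used here. Without the lowest and highest 2% of values the column means were 2499.91 and 2499.91, so the deposited intensity values were already on 1 scale and no further scaling was applied. The number of arrays limits the precision.

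Gene symbols came from GEO's annotation of the platform (7018 with 1 symbol, 308 with several, 1473 with none). All 48 P450 genes matched a RefSeq gene of GRCr8 by gene ID, which changed 0 symbols, and no coordinates of probe sets are given. The 59 control probe sets were left out. A gene's value is the median log2 ratio over its measured probe sets, and a probe set above the floor in 1 pool gives a bound against the floor. Every P450 gene is named. Partner genes were named where they had 1 of the 3 largest absolute ratios of their list, plus Por, Fdx1, Fdxr, Ahr, Ephx1, Ephx2, Ptgis, Tbxas1, Hmox1 and Cyp51, and Fdxr had no probe set with that symbol alone. Arnt, Vdr, Star, Hnf4a, Nr1h4, Cyb5r1, Rxrb, Ppara, Pla2g6 and the cell type markers were named in addition. The members and lists were chosen with earlier results of these data known. Python 3.11.15, pandas 2.3.3 and statsmodels 0.14.6 were used, and the steps were tested on simulated data. Alternatives were floors at the 20th and 60th percentile and of each array separately, quantile normalization, a loess (span 0.3), leaving out shared probe sets, the brightest probe set of a gene and a 2-fold threshold.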

Additional observations from a re-analysis of the deposited data

How the results depend on the processing

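Of 103 gene values under the 8 alternatives, for 18 genes, 102 moved by less than the SD between probe sets of a gene, 0.30, and 1 moved by more, Cyp24a1 with the floor at the 20th percentile (-0.19). Many of these values could not move. A gene with 1 measured probe set keeps its value unless an alternative rescales the signals or admits another probe set. Cyp2a1 and Cyp2b2, the genes at least 1.5-fold apart, kept their sign wherever they were measured, but each rests on 1 measured probe set. Only quantile normalization and the loess changed their values, since the other alternatives return the same probe set. Neither gene was measured without shared probe sets. Cyp2b2 was not measured at the 60th percentile floor either, and its other probe set, below the floor, pointed the other way. Cyp1b1 turned below 0 at the 20th percentile floor (-0.0082) and without shared probe sets (-0.02), Cyp2d4 above 0 at the 20th percentile floor (0.05), and Cyp4a8 above 0 by its brightest probe set (0.14). The counts followed the floor and the probe sets used. Above the floor in both pools there were 45 P450 probe sets at a 20th percentile floor, 9 at the 60th and 7 without shared probe sets. The number at least 1.5-fold higher was 4 at the 20th percentile and 0 at the 60th, without shared probe sets and at 2-fold, and the number at least 1.5-fold lower was 8 at the 20th percentile and 0 without shared probe sets and at 2-fold. Genes above the floor in at least 1 pool came to 8 in family 4 and 9 in family 7 or higher at the 20th percentile. At the 60th they came to 1 in family 1, 4 in family 2, 1 in family 3 and 2 in family 4. Without shared probe sets they came to 1, 3 and 1 in families 1, 2 and 3 and to 1 in family 7 or higher. These shifts follow from the alternatives themselves, which admit or drop probe sets. Quantile normalization, the loess and separate floors left all these counts within 1.5 times. No paired analysis was possible because each group is 1 pool on 1 array. With no detection calls, a signal near the floor cannot be told from background.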
